A study of Mus musculus with 10 samples.

Results

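Antimicrobial peptides and acute-phase proteins are the soluble first line of skin defence, and 10 of their genes were followed here in the skin of mice that overexpress the secreted protease kallikrein 6. The genes were the beta-defensins Defb3, Defb4, Defb6 and Defb14, the cathelicidin gene Camp, the lipocalin gene Lcn2, the lactoferrin gene Ltf, the serum amyloid A genes Saa1 and Saa3, and the C-type lectin gene Reg3g. They were taken by symbol from the 20611 genes listed for each mouse, without reference to their measured values, and all 10 symbols were found. Their choice nevertheless followed earlier results from the same libraries, so the members are described against the background of all genes and no test is made over the group.

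Skin RNA was sequenced from 10 mice, 5 labelled Klk6+ and 5 labelled WT, with 3 males and 2 females in each group. Klk6+ mice carried both a Tetos-Klk6 transgene, which encodes murine Klk6 with a C-terminal Myc/His tag, and the K5-tTA driver, which expresses the tetracycline transactivator from the bovine keratin 5 promoter. In this tet-off arrangement the transgene is silent under doxycycline and expressed in keratinocytes, and in some other stratified squamous epithelia, when the drug is withheld. The controls were littermates that were either wild type or carried 1 of the transgenes alone, and the labels do not say which control was which. Both lines had been backcrossed to C57BL/6, with mice of the F4 generation or later analysed. Klk6+ mice went back on doxycycline chow when 10 to 11 weeks old, and skin was taken when they were 14 to 16 weeks old. The control samples carry the same protocol text, which gives the same collection age but names only Klk6+ mice for the return of the drug. Whole skin was pulverised, so the libraries mix epidermis, dermis, fat, muscle and blood cells.

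Beta-defensins are small cationic peptides secreted by keratinocytes, and several of them also attract leukocytes through chemokine receptors. Camp encodes the precursor of a membrane-disrupting peptide, Lcn2 binds bacterial iron-carrying siderophores and Ltf binds iron itself, and all 3 are stored in neutrophil granules, although Lcn2 and Camp are also made by epithelium. Serum amyloid A proteins circulate with lipoproteins, where Saa1 and Saa2 come chiefly from the liver during the acute-phase response, while Saa3 is made mainly outside it. In epithelia these genes are known targets of IL-17, IL-22, IL-1 and IL-36 cytokines, acting through NF-kappaB, its cofactor IkappaB-zeta (Nfkbiz), C/EBP factors and STAT3.

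Promoters of these genes were examined first, because the members were higher together and C/EBP and NF-kappaB sites are known features of such promoters. The 250 bases before the RefSeq transcription start (GRCm38.p6) were available for 8 of the 10 members. Defb4 and Defb14 were not among the entries. A sequence was searched on both strands for the C/EBP motif TTGCNNAA, the AP-1 motif TGANTCA, the STAT motif TTCNNNGAA and the NF-kappaB motif. The C/EBP letters occurred in 6 of the 8 promoters (75%; Defb3, Defb6, Lcn2, Ltf, Saa1 and Saa3), against 9.56% of the 32851 mouse promoters of the same length. NF-kappaB letters occurred in 2 of 8 (25%; Defb6 and Reg3g), against 3.9% of all promoters. Neither the STAT nor the AP-1 letters occurred in any of the 8, against 7.02% and 6.75% of all promoters. With 8 promoters and shares this low, no absence can be read from that. The Defb3 and Defb6 promoters are 72.5% identical, so their C/EBP matches are not separate cases. A match is a stretch of letters and not a measured binding site.

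The promoters of 4 members are printed 5′ to 3′ along the gene's own strand, with every match to a motif in capitals: Defb3 (chr8:19293111-19293360, plus strand), Defb6 (chr8:19225228-19225477, plus strand), Saa1 (chr7:46742981-46743230, minus strand) and Saa3 (chr7:46715677-46715926, minus strand). The 2 defensins are shown because their promoters were the most alike of any pair while their genotype effects differed greatly, and the 2 serum amyloid genes because both hold the C/EBP letters in little-related surroundings.
Defb3: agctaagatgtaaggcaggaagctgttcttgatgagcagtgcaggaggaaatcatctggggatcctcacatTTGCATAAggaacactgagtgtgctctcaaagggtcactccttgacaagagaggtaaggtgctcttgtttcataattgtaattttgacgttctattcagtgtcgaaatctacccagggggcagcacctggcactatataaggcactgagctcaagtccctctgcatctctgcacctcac
Defb6: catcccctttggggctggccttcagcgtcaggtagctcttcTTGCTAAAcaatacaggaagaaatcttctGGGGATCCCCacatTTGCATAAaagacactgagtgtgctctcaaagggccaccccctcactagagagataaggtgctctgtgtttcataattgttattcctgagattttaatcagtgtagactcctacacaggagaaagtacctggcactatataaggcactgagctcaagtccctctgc
Saa1: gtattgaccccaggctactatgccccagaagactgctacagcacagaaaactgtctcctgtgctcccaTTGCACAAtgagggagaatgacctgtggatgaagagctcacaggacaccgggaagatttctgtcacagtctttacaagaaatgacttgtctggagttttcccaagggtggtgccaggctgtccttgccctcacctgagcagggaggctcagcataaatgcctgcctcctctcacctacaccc
Saa3: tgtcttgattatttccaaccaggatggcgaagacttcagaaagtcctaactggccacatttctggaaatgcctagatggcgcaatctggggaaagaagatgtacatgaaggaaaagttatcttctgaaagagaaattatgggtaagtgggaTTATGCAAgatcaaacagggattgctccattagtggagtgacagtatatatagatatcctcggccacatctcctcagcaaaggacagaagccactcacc
Defb3 and Defb6 were identical at 192 of 265 aligned columns (72.5%), whereas every other pair of the 8 promoters lay between 42.1% and 49.8%, Saa1 with Saa3 at 48.9%. Both defensin promoters hold TTGCATAA, at -179 to -172 from the start in Defb3 and at -166 to -159 in Defb6. Defb6 alone of the pair also holds a second C/EBP match, TTGCTAAA, at -209 to -202, and the NF-kappaB match GGGGATCCCC at -180 to -171. In Saa1 the match is TTGCACAA at -182 to -175, and in Saa3 it lies on the opposite strand at -99 to -92, where the printed strand reads TTATGCAA.

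The libraries held between 26521019 and 41970272 counts, so that 1 count was worth 0.0230 to 0.0372 CPM (counts per 1000000, scaled by edgeR's TMM factors). Klk6 itself, the targeted gene, lay between 12.7 and 26.5 CPM in WT and between 10290 and 14769 CPM in Klk6+ (log2 fold change 9.45 ± 0.22 SE; edgeR quasi-likelihood adjusted p = 5.57e-09), in keeping with the labels of all 10 libraries; transgene and endogenous transcripts are counted together. These Klk6 levels were measured in mice described as back on the drug that silences the transgene, and the sources used here do not say how the 2 fit together or whether these skins were on the drug when taken. Of 14861 genes tested, 72.8% passed an adjusted p of 0.05 in 1 direction or the other, 37.7% higher and 35.1% lower in Klk6+. Skeletal muscle markers fell in 16 of 16 cases, from 63995 to 97198 CPM in sum in WT to 4771 to 9492 in Klk6+, and macrophage (8 of 8) and adipocyte (6 of 6) markers fell too. Among 6 keratinocyte markers 4 rose and 1 fell, and they summed to between 4697 and 13798 CPM in control skin and between 18722 and 28099 CPM in Klk6+ skin. In whole skin, a change in the number of cells of a type and a change in RNA per cell cannot be told apart. The part of these shifts in the values below was not tested. With Klk6 and the muscle genes left out of the totals, which changes only the denominator, the 10 members held 0.00369% to 0.00836% of counts in WT and 0.101% to 0.162% in Klk6+.

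Every member that could be tested was higher in Klk6+ skin. Of the 10, 9 passed the filter on low counts, and all 9 were called higher at an adjusted p below 0.05 (edgeR quasi-likelihood test with sex as a covariate), where 37.7% of all tested genes were called higher. Of these, Defb3, Defb4, Camp, Ltf and Saa1 held just 59, 36, 48, 25 and 22 counts over the WT libraries. They needed their Klk6+ libraries to pass the filter and could hardly have been called lower, so their direction was partly set by entry. Since all 9 were called higher, none was called lower, where 35.1% of all tested genes were. For the same reason none was lower at an unadjusted p below 0.05 in edgeR or called lower by DESeq2, which is no separate result. In 8 of the 9 all 5 Klk6+ libraries lay above all 5 WT libraries, as they did for 30.1% of all tested genes. The median log2 fold change was 6.86 among the 9 members and 0.04 among all tested genes, and only 1.37% of all tested genes were both called and at least 16-fold higher, as 7 of the members were. Together the 10 genes went from 0.00537% ± 0.00208 to 0.132% ± 0.0267 of all counts (SD, n = 5 mice each).

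**Figure D1:**
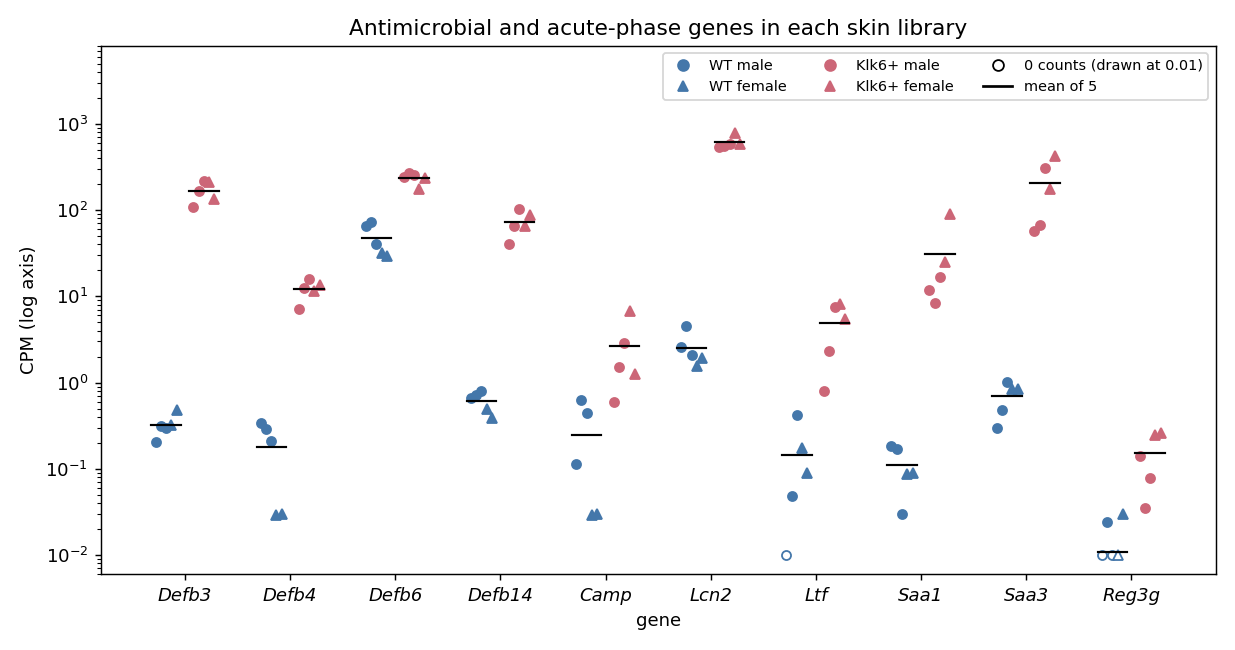
Level of each of the 10 genes in each skin library, in CPM on a log axis; circles are males, triangles females, open symbols libraries with 0 counts and bars group means. WT and Klk6+ libraries are separated in CPM for every gene except Camp, and the gap is narrowest for Reg3g, Ltf and Defb6 among the others. For Reg3g the lowest Klk6+ library and the highest WT library held 1 count each, so that gap comes from library size alone.

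The beta-defensins divided into 1 gene that was already abundant in control skin and 3 that were almost silent there. Defb3, the mouse counterpart of the inducible human beta-defensin 2 family, measured 0.207, 0.313, 0.299, 0.322 and 0.478 CPM in WT 1 to 5 and 108, 165, 217, 214 and 134 CPM in Klk6+ 1 to 5. The lowest Klk6+ library stood 226-fold above the highest WT library. Its mean went from 0.324 ± 0.0976 to 168 ± 48.2 CPM (SD, n = 5 each; log2 fold change 9.02 ± 0.30; edgeR adjusted p = 3.08e-08), the largest change among the members, and it ranked 16th by log2 fold change among all genes tested.

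Defb14, whose peptide is a potent killer of bacteria and a ligand of the chemokine receptor CCR6, measured 0.666, 0.722, 0.807, 0.497 and 0.388 CPM in WT and 40.2, 65.4, 102, 64.8 and 88.0 CPM in Klk6+. The groups were again far apart, with Klk6+ 1 lowest and Klk6+ 3 highest of their group (6.86 ± 0.32; edgeR adjusted p = 2.04e-07). Defb4, another inducible defensin, measured 0.344, 0.289, 0.209, 0.0293 and 0.0299 CPM in WT and 7.22, 12.4, 15.9, 11.5 and 13.6 CPM in Klk6+ (6.10 ± 0.50; edgeR adjusted p = 2.89e-06). The WT females, libraries 4 and 5, held a single Defb4 count each, below all 3 WT males.

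Defb6, a beta-defensin also described in skeletal muscle, behaved otherwise: it measured 66.1, 71.9, 40.7, 31.7 and 29.4 CPM in WT and 241, 270, 258, 173 and 233 CPM in Klk6+. Groups did not overlap, but the lowest Klk6+ library was only 2.41-fold above the highest WT library. The rise from 47.9 ± 19.8 to 235 ± 37.4 CPM (2.36 ± 0.19; edgeR adjusted p = 2.59e-06) was the smallest log2 change of the 9. Krt5, the keratin gene whose bovine promoter drives the transgene, rose by 1.09 ± 0.23 (edgeR adjusted p = 0.00165) in the same libraries, and its partner Krt14 by 3.52 ± 0.27 (adjusted p = 1.83e-06). The keratinocyte markers Krt1 and Dsg3 also rose, whereas Krt10 was called lower (-0.54 ± 0.19, edgeR adjusted p = 0.0278) and Trp63 was not called (0.44 ± 0.20). Krt10 and Trp63 were picked out after their values were seen. The part of these keratinocyte marker changes in the defensin values was not tested.

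All 4 defensins stand in 1 stretch of chromosome 8, on the plus strand of GRCm38 with GENCODE M21 gene models: Defb14 at chr8:19194357-19195212, Defb4 at chr8:19198706-19201545, Defb6 at chr8:19225478-19228209 and Defb3 at chr8:19293360-19295291. No exon of another gene overlapped any of them. No 50-base stretch of the Defb3, Defb6 or Defb14 transcripts recurred in another gene's transcripts, while 5.68% of the 50-base stretches of Defb4 recurred in Defb8. Single-end reads of 50 cycles from those stretches cannot be assigned to 1 gene, so the Defb4 and Defb8 counts carry that uncertainty.

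Among the 38 other beta-defensin genes listed, 19 had 0 counts in all 10 libraries and 3 passed the filter. All 3 were called higher, where 37.7% of all tested genes were. Defb5 and Defb8 needed their Klk6+ libraries to pass the filter, so their direction was partly set by entry. With no filter, 3 of the other beta-defensins were called lower. Defb1, the constitutive epithelial defensin, went from 22.8 ± 7.33 to 113 ± 14.8 CPM (2.35 ± 0.15; edgeR adjusted p = 8.36e-07), close in size to Defb6. Defb5 went from 1 count over the 5 WT libraries to 149 over the 5 Klk6+ libraries (6.69 ± 0.57; adjusted p = 3.54e-06; 7.93 without WT 1, which held that count). Defb8 held 80, 62, 29, 0 and 0 counts in WT and 102, 117, 189, 178 and 96 in Klk6+ (2.87 ± 0.89; adjusted p = 0.0144), so that, as for Defb4, both WT females were below all WT males.

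The 3 genes whose proteins fill neutrophil granules rose by very different amounts. Lcn2 measured 2.62, 4.48, 2.06, 1.55 and 1.94 CPM in WT and 541, 552, 582, 788 and 579 CPM in Klk6+. Its Klk6+ libraries lay close together, with 1.46-fold between lowest and highest, and all were at least 121-fold above the highest WT library. The mean went from 2.53 ± 1.15 to 609 ± 102 CPM (7.93 ± 0.33; edgeR adjusted p = 1.04e-07).

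Ltf measured 0, 0.0481, 0.419, 0.176 and 0.0896 CPM in WT and 0.793, 2.30, 7.55, 8.21 and 5.48 CPM in Klk6+. The groups did not overlap, but the lowest Klk6+ library, Klk6+ 1, was just 1.90-fold above WT 3, and the Klk6+ libraries spanned 10.3-fold. The log2 fold change was 5.02 ± 0.86 (edgeR adjusted p = 0.000404), 6.14 without WT 3 and 4.41 without Klk6+ 3.

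Camp measured 0.115, 0.626, 0.448, 0.0293 and 0.0299 CPM in WT and 0.595, 1.50, 2.89, 6.85 and 1.27 CPM in Klk6+. It was the tested member with overlapping groups, since Klk6+ 1 lay below WT 2, and the Klk6+ libraries spanned 11.5-fold with Klk6+ 4 far above the rest. The rise was called (3.33 ± 0.93; edgeR adjusted p = 0.00798), with a value of 2.64 without Klk6+ 4 and 3.96 without WT 2. Camp and Ltf rest on few reads: 48 and 25 counts over the WT libraries and 430 and 794 over the Klk6+ libraries, against 487 and 98177 for Lcn2.

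Neutrophil markers rose in the same libraries. Of 12 listed 11 were in the files (Ly6g was not analysed here), and 10 rose while Itgam, an integrin gene that macrophages also express, fell (-1.24 ± 0.40; edgeR adjusted p = 0.0183; picked out after its value was seen). Over all tested genes 37.7% were called higher and 35.1% lower. The median log2 fold change of the markers was 4.30. Their summed level ran from 45.1 to 250 CPM over WT libraries and from 108 to 572 CPM over Klk6+ libraries, which overlap. With Itgam left out, a choice made after its value was seen, the sum was 6.89 to 27.2 CPM in WT 1 to 5 and 145, 86.3, 512, 150 and 417 CPM in Klk6+ 1 to 5. That sum varied 5.93-fold among Klk6+ libraries, Lcn2 1.46-fold. The single markers differed in this: Cxcr2 varied 2.10-fold and Mmp8 8.52-fold. Cxcr2, the chemokine receptor of mature neutrophils, rose by 4.27 ± 0.30, the collagenase Mmp8 of their granules by 6.31 ± 0.91, the activating receptor Trem1 by 6.61 ± 0.85 and the formyl peptide receptor Fpr1 by 5.44 ± 0.76. Without WT 2 the values for Mmp8 and Trem1 were 7.49 and 7.96, and without Klk6+ 3 those for Mmp8 and Fpr1 were 5.55 and 4.76. With FPKM and a pseudocount of 1 they were 2.99 for Cxcr2, 2.94 for Mmp8, 2.96 for Trem1 and 2.49 for Fpr1. Mmp8, Trem1 and Fpr1 held 65, 56 and 38 counts over the WT libraries and needed their Klk6+ libraries to pass the filter.

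Of 8 genes of immature neutrophils and their granules 3 were tested and 2 rose, where 37.7% of all tested genes were called higher. Ngp, a granule protein gene of the same stage as Camp and Ltf, measured 2.78, 3.38, 15.9, 10.5 and 13.6 CPM in Klk6+ 1 to 5 and 0.329 CPM or less in WT (6.61 ± 0.83; 8.02 without WT 3 and 5.95 without Klk6+ 3). Like Ltf, it was lower in Klk6+ 1 and 2 than in Klk6+ 3 to 5. The myeloperoxidase gene Mpo rose by 4.46 ± 0.78 (5.49 without WT 2). With FPKM and a pseudocount of 1 the values were 0.65 for Mpo and 2.87 for Ngp. Mpo and Ngp held just 14 and 16 counts over the WT libraries. Prtn3, which encodes the protease that releases the active peptide from the cathelicidin precursor, had -1.12 ± 0.47 (edgeR adjusted p = 0.0551; picked out after its value was seen). The list summed to 2.90 to 5.65 CPM in WT skin and 5.47 to 22.0 CPM in Klk6+ skin, with Klk6+ 1 and 2 at 5.50 and 5.47. The part of neutrophils in the Lcn2, Camp and Ltf values was not tested. Without Klk6+ 3 and 5, whose neutrophil sums were the highest, all 9 tested members were called higher, and the 3 Klk6+ libraries kept still had sums (Itgam left out) above every WT library.

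**Figure D2:**
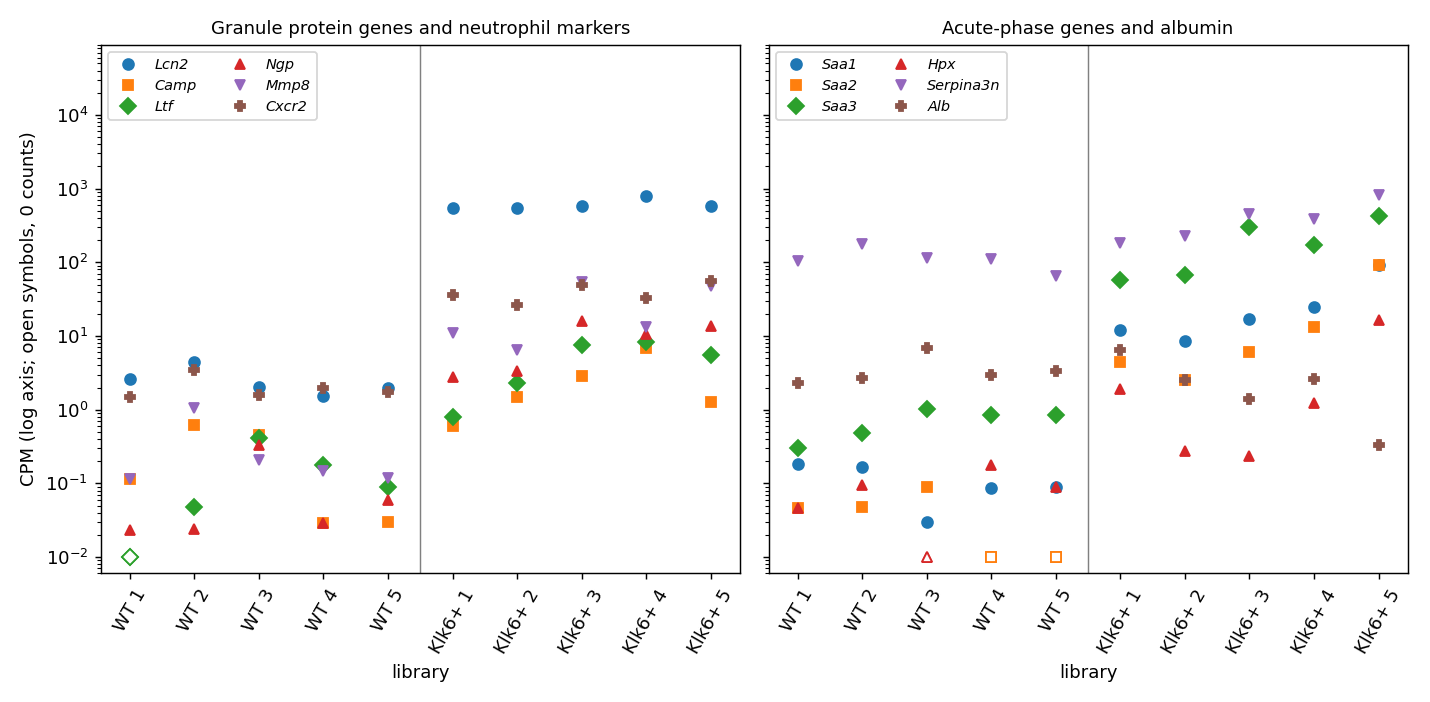
Level in CPM on a log axis in each of the 10 libraries for the granule protein genes with 3 neutrophil genes (left) and for the serum amyloid A genes with 2 other acute-phase genes and albumin (right); open symbols mark 0 counts. Lcn2 is level across Klk6+ libraries while Ltf and Ngp are lower in Klk6+ 1 and 2, and Saa1, Saa2, Saa3, Hpx and Serpina3n all peak in Klk6+ 5, where Alb is lowest.

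The serum amyloid A genes rose strongly and unevenly. Saa3, the form made by epithelium, fat and macrophages, measured 0.298, 0.481, 1.02, 0.848 and 0.836 CPM in WT and 57.8, 66.8, 306, 174 and 423 CPM in Klk6+. All Klk6+ libraries were at least 56.9-fold above the highest WT library, yet they spanned 7.31-fold among themselves, with Klk6+ 1 and 2 low and Klk6+ 3 and 5 high. The log2 fold change was 8.17 ± 0.67 (edgeR adjusted p = 3.07e-06), and 7.55 without Klk6+ 3.

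Saa1 measured 0.184, 0.168, 0.0299, 0.0878 and 0.0896 CPM in WT and 11.9, 8.43, 16.9, 24.7 and 91.2 CPM in Klk6+. Here 1 mouse, Klk6+ 5, was far above the other 4, which lay within 8.43 to 24.7 CPM, and even the lowest was 45.9-fold above the highest WT library. The log2 fold change was 7.66 ± 0.65 (edgeR adjusted p = 3.48e-06) and 6.96 without Klk6+ 5. It rests on just 22 counts over the WT libraries, against 4553 over the Klk6+ libraries. Saa2, the neighbouring acute-phase gene, showed the same mouse: it measured 0.0459, 0.0481, 0.0897, 0 and 0 CPM in WT and 4.42, 2.51, 6.03, 13.3 and 91.8 CPM in Klk6+ (8.63 ± 1.03; edgeR adjusted p = 3.40e-05; 7.22 without Klk6+ 5, 7.79 and 7.84 without WT 4 or WT 5, and 9.47 without WT 3).

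Reads of these genes are partly interchangeable. Of the 50-base stretches of Saa1 transcripts 31.5% recurred in Saa2 or Saa3, and of those of Saa2 30% recurred in Saa1, so the split of counts between Saa1 and Saa2 is uncertain, while 3.57% of the Saa3 stretches recurred elsewhere. Saa3 (chr7:46711998-46715700, minus strand), Saa1 (chr7:46740497-46742980, minus strand) and Saa2 (chr7:46751790-46754313, plus strand) are neighbours on chromosome 7 of GRCm38.

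The other acute-phase genes did not follow the serum amyloids as a group. Of 25 listed 18 were tested, 4 rose, 5 fell and 9 did not pass the test, with a median log2 fold change of 0.13. Over all tested genes 37.7% were called higher and 35.1% lower. Besides Saa2, the antiprotease gene Serpina3n rose (1.79 ± 0.42; edgeR adjusted p = 0.00303; 1.17 without Klk6+ 3 and 5), as did the orosomucoid genes Orm1 (0.80 ± 0.19) and Orm2 (0.91 ± 0.22). The iron hormone gene Hamp fell by 4.71 ± 0.63, on 255 counts over the WT libraries and 8 over the Klk6+ libraries. Its log2 fold change was -6.21 without Klk6+ 1 and -2.57 with FPKM and a pseudocount of 1. The lipopolysaccharide-binding protein gene Lbp fell by 1.45 ± 0.28, and C3 (-1.54 ± 0.38), Ptx3 (5.21 to 1.30 CPM) and Cp (-0.74 ± 0.26) were also called lower. Hp, the haptoglobin gene, had 0.16 ± 0.36 (adjusted p = 0.709). Orm1, Orm2, C3, Ptx3, Cp and Hp were picked out after their values were seen.

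Hepatocyte markers were low in every library. Only 2 of 6 passed the filter, and neither was called. All 6 summed to between 3.47 and 7.77 CPM in controls and between 1.97 and 8.07 CPM in Klk6+ mice. In Klk6+ mice Saa1 ran from 8.43 to 91.2 CPM, Saa2 from 2.51 to 91.8 CPM and Saa3 up to 423 CPM. The cell source of the serum amyloid transcripts was not tested. Albumin (Alb) had a log2 fold change of -0.53 ± 0.57 (edgeR adjusted p = 0.420), and in Klk6+ 5, the library with the most Saa1, it was at its lowest, 0.335 CPM.

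Reg3g, an antibacterial lectin gene of epithelium that is induced by IL-17 in skin, was barely sequenced. It had 0, 1, 0, 0 and 1 counts in WT and 5, 1, 3, 8 and 7 counts in Klk6+, too few to pass the filter. Klk6+ libraries held 24 counts and WT libraries 2, which after scaling for library size is a ratio of 13.9, with a 95% interval of 3.44 to 121 that covers counting error only. With no filter, an alternative, Reg3g was called (3.38 ± 0.75; edgeR adjusted p = 0.00219 among 17974 genes). None of the 6 other Reg lectin genes passed the filter: Reg2, Reg3a and Reg3d had 0 counts in every library, Reg3b had 4 counts in each group, and Reg1 had 6 in WT and 44 in Klk6+. Reg1 and Reg3b were picked out after their values were seen. Reg3g lies at chr6:78466269-78468872 on the minus strand of GRCm38.

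The rank of the members by transcript level was read from the authors' FPKM values, which are scaled by transcript length. In WT skin Defb6 stood alone at 331.5 ± 134 FPKM, and every WT library had more of it than of any other member. Behind it came Defb14 (4.05 ± 1.09 FPKM), Lcn2 (3.31 ± 1.44), Defb3 (2.26 ± 0.68) and Saa3 (1.81 ± 0.77), then Defb4, Camp, Saa1, Ltf and Reg3g, each below 1, and no gene in this run was separated from the next beyond the spread of libraries. In Klk6+ skin 5 genes stood at the top, with Defb6 at 1637 ± 217, Defb3 at 1181 ± 344, Lcn2 at 810 ± 160, Saa3 at 543 ± 420 and Defb14 at 478 ± 155 FPKM, where neighbours overlapped. Only Defb3 overlapped Defb6, whose lowest library (1262 FPKM) was above the highest of Lcn2 (1090), Saa3 (1135) and Defb14 (660). Saa1 (66.2 ± 75.3 FPKM) and Defb4 (40.7 ± 10.5) followed after a gap, and Camp (5.78 ± 5.72), Ltf (1.67 ± 1.13) and Reg3g (0.234 ± 0.158) after another. The defensin transcripts are short, where the FPKM scale depends most on the length correction used. By counts, Defb6 made up 91.0% of the reads of the 10 genes in WT, whereas in Klk6+ Lcn2 made up 45.6%, Defb6 17.6%, Saa3 15.1% and Defb3 12.7%.

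Among the 5 Klk6+ mice the members did not rise and fall as 1 block. Klk6+ 1 had the lowest level of 7 members, among them Ltf, 2.17 below the group's mean on the log2 scale, Camp (-1.63) and Saa3 (-1.41), but its Defb6 was at the mean (0.05). Klk6+ 3 was highest for Defb3, Defb4 and Defb14, Klk6+ 4 for Camp, Lcn2 and Ltf, and Klk6+ 5 for Saa1, Saa3 and Reg3g. Spread differed among the genes: the coefficient of variation over the Klk6+ mice was 15.9% for Defb6 and 16.8% for Lcn2, 26.4% to 33.0% for the other 3 defensins, and 66.5% to 112% for Ltf, Saa3, Camp and Saa1. Differences between single mice have no replicate and were not tested.

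**Figure D3:**
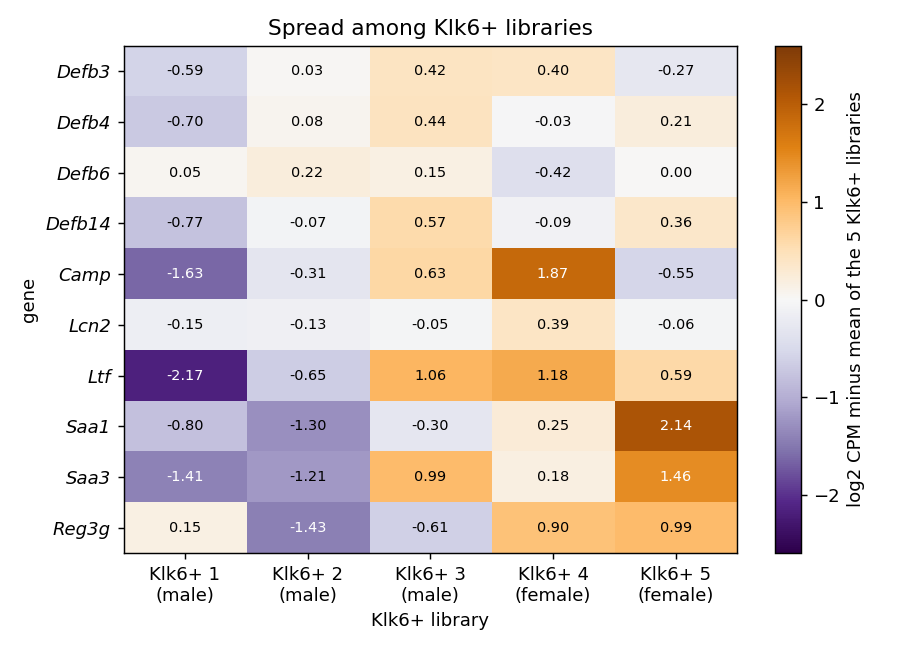
Deviation of each gene from its mean over the 5 Klk6+ libraries, in log2 CPM, with the sex of each mouse; orange is above and purple below the mean. Defb6 and Lcn2 stay within 0.42 of their means, whereas Ltf ranges from -2.17 in Klk6+ 1 to 1.18 in Klk6+ 4 and Saa1 reaches 2.14 in Klk6+ 5.

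Both sexes showed the rise, with the same limit for the members that needed their Klk6+ libraries to pass the filter. Within males all 9 tested members were called higher (background 33.4% of genes), with a median log2 fold change of 6.50 against 0.04 for all genes, and within females all 9 were called higher (background 31.2%), with a median of 8.46 against 0.03. The genotype-by-sex interaction was called for no member and for no gene at all (0% of 14861; 1410 genes at an unadjusted p below 0.05, and 261 called by DESeq2, none a member). The 3 members at an unadjusted p below 0.05 were Defb4, Camp and Lcn2, each with the larger estimate in females. Defb4 had 5.36 ± 0.36 in males and 8.56 ± 0.57 in females (edgeR interaction adjusted p = 0.243), Camp 2.07 ± 0.81 and 6.94 ± 1.39 (0.396), and Lcn2 7.51 ± 0.33 and 8.61 ± 0.42 (0.444).

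The female estimates for Defb4 and Camp rest on control mice with 1 count each of either gene. Over the females, WT held 2 counts and Klk6+ 737 of Defb4, a ratio of 421 after scaling for library size (95% counting interval 116 to 3482, counting error only). For Camp the totals were 2 and 256, a scaled ratio of 146 (40.1 to 1214). In WT skin all 3 males were above both females for 5 members, Defb4, Defb6, Defb14, Camp and Lcn2, as they were for 24.2% of all tested genes. Keratinocyte markers separated the same way in these mice (9327 to 13798 CPM in sum in males, 4697 and 7275 in females) and macrophage markers the opposite way (1154 to 2002 CPM in males, 4277 and 5053 in females), and their part in the difference was not tested. In Klk6+ skin both females were above all 3 males for Saa1 and Reg3g, as for 8.43% of all tested genes. Neither pattern was tested. The female estimate for Camp was 5.20 without Klk6+ 4 and 7.63 without Klk6+ 5. Camp in males was the least stable of these calls (adjusted p = 0.0475), and it was lost in 8 of 13 alternatives, with adjusted p up to 0.188 without Klk6+ 3.

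**Figure D4:**
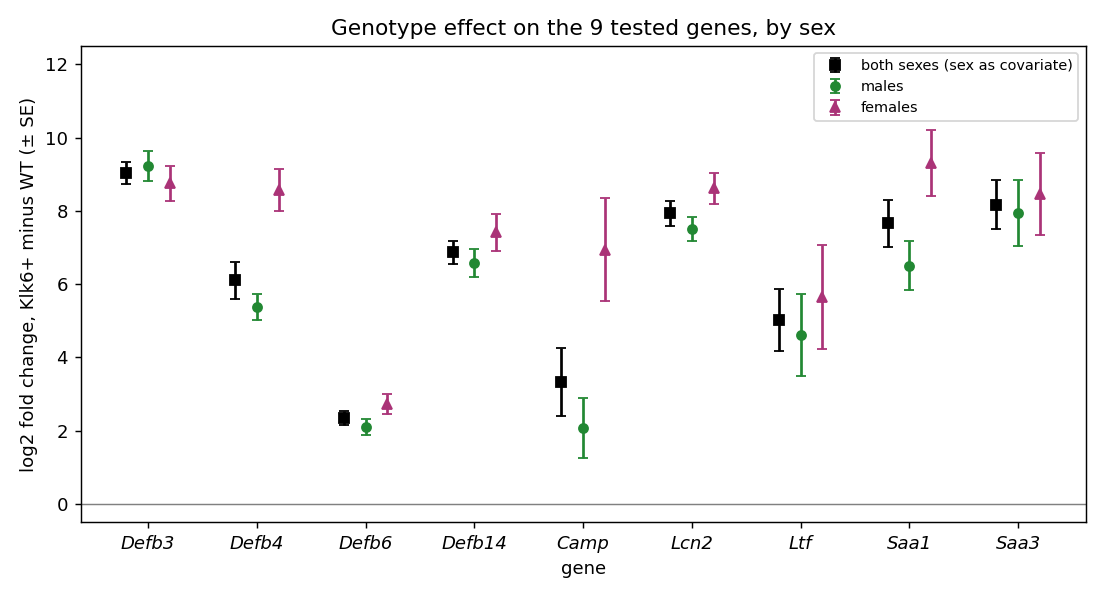
Log2 fold change of Klk6+ over WT with its standard error for the 9 tested genes, over all mice with sex as a covariate (black squares), in males (green circles) and in females (magenta triangles). Every estimate lies above 0, and the sexes differ most for Defb4 and Camp, whose interactions did not pass the test over all genes.

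Cytokines known to induce these genes were all higher. All 15 listed were tested and called higher, where 37.7% of all tested genes were, with a median log2 fold change of 6.23. Some, among them Il17f (6 counts over the WT libraries) and Il19 (21), needed their Klk6+ libraries to pass the filter. Such genes could hardly have been called lower. Il19 rose by 8.61 ± 0.34, Il17f by 8.63 ± 0.49 (9.26 without WT 3), and the IL-36 genes Il1f6 by 7.72 ± 0.22 and Il1f9 by 4.11 ± 0.23 (edgeR adjusted p at most 4.97e-07 for these 4). With FPKM and a pseudocount of 1 the values were 5.42 for Il19, 3.67 for Il17f and 6.62 for Il1f6. Il22, picked out after its values were seen, went from 0 counts in all WT libraries to a total of 686 in the Klk6+ libraries, which, scaled for library size, is at least 264-fold higher when 3 counts are set as the floor for the whole WT group.

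Of 16 tested receptors and factors through which these cytokines act 7 rose, 3 fell and 6 did not pass the test, with a median of 0.47. That share of rises is near the 37.7% of all tested genes called higher, and 35.1% were called lower. Nfkbiz, which encodes IkappaB-zeta, rose by 3.62 ± 0.18, Cebpb by 1.86 ± 0.13 and Nfkb1 by 0.80 ± 0.07, whereas the IL-6 receptor gene Il6ra fell by 2.32 ± 0.20. The others that fell were Il6st (-1.02 ± 0.16), its signalling partner, and Il10rb (-0.47 ± 0.16), a subunit of the IL-22 receptor, both picked out after their values were seen. Cebpd had -0.18 ± 0.28 (edgeR adjusted p = 0.584) and Rela 0.06 ± 0.12 (adjusted p = 0.687), both also picked out afterwards.

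Of 11 tested receptors of the products 2 rose, 7 fell and 2 did not pass the test, with a median of -0.61, where 37.7% of all tested genes were called higher and 35.1% lower. The 2 that rose were Ccr6 (2.23 ± 0.36), the lymphocyte receptor for beta-defensins, and Fpr2 (3.43 ± 0.60, 2.39 without Klk6+ 3 and 5), the formyl peptide receptor that binds cathelicidin and serum amyloid A and that is also on the neutrophil list. Ccr2, the monocyte chemokine receptor that binds several beta-defensins, fell by 2.49 ± 0.28 and Lrp1, an endocytic receptor for lactoferrin, by 1.06 ± 0.19. Macrophage markers had a median of -2.10 in the same libraries, and their part in these values was not tested.

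Among 4 tested proteases that process these peptides the epidermal kallikreins Klk8 (3.09 ± 0.17), Klk7 (2.76 ± 0.22) and Klk5 (1.42 ± 0.20) rose, where 37.7% of all tested genes were called higher. Klk5 and Klk7 cleave the cathelicidin precursor in skin. The other, Prtn3, was not called.

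Of 21 other antimicrobial genes of skin 19 were tested, 11 rose and 8 fell, with a median of 1.46, against 37.7% of all tested genes called higher and 35.1% lower. S100a8 (8.68 ± 0.23) and S100a9 (8.76 ± 0.24), which encode the zinc-binding calprotectin pair, S100a7a (6.07 ± 0.38), the mouse psoriasin gene, and the antiprotease gene Slpi (7.43 ± 0.48) rose by amounts in the range of the members. S100a9 reached 4735 ± 970 CPM, against 609 ± 102 CPM for Lcn2. The lysozyme genes Lyz1 (-2.58 ± 0.37) and Lyz2 (-2.02 ± 0.36), abundant in macrophages, and the resistin-like gene Retnla (-6.36 ± 0.53) fell, and these 3 were picked out after their values were seen.

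For each tested member the most similar gene was sought over all 10 libraries, as the smallest root mean square difference in log2 CPM after subtracting each gene's WT mean. The closest matches were Ckmt1 and Calm4 for Defb6 (0.17 and 0.18), Chil1 and Stfa2 for Lcn2 (0.17 and 0.40), Lpo and Krt6b for Defb14 (0.23 and 0.25) and Uox and Sprr2d for Defb3 (0.28 and 0.33). Defb4 was nearest to Il23a and Serpinb3c (0.58 and 0.59). Looser matches were Klk13 and Spink12 for Saa3 (0.82 and 0.83), Lce3c and Il1f6 for Saa1 (both 0.92 to 0.93), Wfdc12 and Gm3336 for Camp (both 1.07) and Fpr1 and Fgf23 for Ltf (1.11 and 1.32). These distances describe 10 libraries of 2 genotypes, and any gene with a similar genotype effect and spread will score as near.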

How the data were processed

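Per the labels' protocols, polyadenylated RNA from pulverised whole skin was made into TruSeq v2 libraries, whose kit does not mark strand, and sequenced for 50 cycles from 1 end on an Illumina HiSeq instrument. Per the submitters' processing notes, TopHat2, SAMtools, HTSeq and Cufflinks 2.2.1 were used with GRCm38/mm10; what each tool did, which annotation was used and how ambiguous reads were handled were not given in the sources used here. Each deposited table gives 1 mouse's read count and FPKM per gene, both as the authors made them, and the FPKM are used only for levels between genes and as an alternative. Replicates were checked for duplicates: no pair of libraries in a group agreed within counting noise (lowest chi-square per degree of freedom 40.5).

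The count model was fitted with edgeR 4.0.16 (R 4.3.3). Low-count genes were dropped by filterByExpr (minimum count 10), which left 14861 of 20611, and libraries were scaled by TMM. Genotype was tested with the quasi-likelihood F test with sex as a covariate, and effects within each sex and the interaction came from a model with 4 means. P-values were adjusted by Benjamini-Hochberg over all genes tested, with a threshold of 0.05. The procedure was tested on simulated data with 200 changed genes. In the real libraries 72.8% of the tested genes were called, so the simulation does not show how it behaves under so broad a shift. Values after ± are SE for log2 fold changes and SD for levels. Alternatives, described in the closing section, used DESeq2 1.42.0, limma 3.58.1, other scalings, no filter, FPKM, no sex term and each library left out. The members, gene lists, tests and rule for named genes were chosen with earlier results of these data known. The text names the members, Klk6, up to 4 genes of each list by smallest p, 2 similar genes per member, and others picked out after their values were seen, marked so in the text. Marker and gene lists were described by counts of calls, medians and, for markers, summed CPM, with no test over a list. Promoters came from RefSeq (GRCm38.p6), positions and transcripts from GENCODE M21 on GRCm38, and promoters were aligned with biopython 1.88 under Python 3.11.15. Figures were drawn with matplotlib 3.10.9. Protein sequences were not analysed here.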

Additional observations from a re-analysis of the deposited data

Results flagged for a closer look

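In the 20 sets of 5 libraries examined, 1 for each of the 10 genes in each genotype, 2 had a single library far from the other 4, measured as the gap to its nearest neighbour over the whole range and set against a critical value of 0.71. Chance alone marks about 1 set in 20 if values are normally distributed, which was not checked for these unlogged CPM. Lcn2 in Klk6+ 4, a female, stood at 788 CPM with the next library at 582 CPM, a gap of 0.835 of the range. Saa1 in Klk6+ 5, the other female, stood at 91.2 CPM with the next at 24.7 CPM, a gap of 0.803 of the range.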

How the results depend on the processing

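The 9 tested members were all called higher under each of 20 alternatives, among them DESeq2, limma-voom, upper-quartile scaling, no filter, FPKM with a pseudocount of 0.1 or 1, genotype alone, each library left out in turn, and, chosen after seeing the data, Klk6+ 3 and 5 left out together. Genes called overall ran from 10319 (without WT 4) to 11265 (no filter), members called in males and in females from 8 to 9, and the members' share of counts between 0.00475% and 0.00586% for WT and between 0.125% and 0.140% for Klk6+. Log2 fold changes ranged over the alternatives from 8.48 to 9.17 for Defb3, 4.72 to 6.40 for Defb4, 2.17 to 2.46 for Defb6, 6.46 to 7.07 for Defb14, 1.88 to 3.96 for Camp, 7.59 to 8.19 for Lcn2, 1.23 to 6.14 for Ltf, 5.20 to 8.19 for Saa1 and 7.07 to 8.49 for Saa3; the lowest for Defb4, Camp, Ltf and Saa1 came with FPKM and a pseudocount of 1, which by construction shrinks genes of low level. The largest adjusted p was 0.0251, for Camp without Klk6+ 3 and 5. With single libraries left out, the female minus male difference ranged from -1.44 (without WT 3) to 2.25 for Ltf, against 1.05 with all, and from -0.27 (without Klk6+ 5) to 1.74 for Saa3, against 0.52; Saa3 also changed sign without WT 3 (-0.09). None was called, and the cause was not tested. Ltf in females lost its call without WT 5 (adjusted p = 0.0643).

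List counts moved by over 1.5 times mainly with no filter, where more genes were tested: 7 other acute-phase genes rose in place of 4, 5 granule genes rose and 1 fell in place of 2 and 0, 1 Reg lectin rose, 3 other beta-defensins fell, and 1 hepatocyte gene rose and 1 fell. Prtn3 was called lower, in both the protease and the granule list, under upper-quartile scaling, DESeq2, limma-voom, both FPKM settings, and without WT 4, without Klk6+ 5 or without Klk6+ 3 and 5. Granule genes that rose numbered 4 without any 1 WT library, 2 granule genes fell without Klk6+ 3 and 5, 1 red cell gene rose without WT 3, and Itgam was not called without WT 2 or Klk6+ 1. Krt10, the keratinocyte marker called lower, picked out after its value was seen, was not called with genotype alone or without WT 1, 2 or 4 or Klk6+ 2 or 3.

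No paired analysis was possible because the labels give no numbers that tie a WT mouse to a Klk6+ mouse. Limits are the low counts of Reg3g, Camp and Ltf in all libraries, of Saa1 and Saa2 in WT, of Hamp in Klk6+, and of Defb4 in WT, above all in WT females. Further limits are the 2 females per genotype, the shared Saa1 and Saa2 sequence, and bulk skin whose cell makeup changed with genotype.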

Other observations

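Klk6+ 5 differed from the other Klk6+ mice in several acute-phase genes that were picked out after their values were seen. Hpx, the haem-binding hemopexin gene, which was not tested, had 68, 8, 9, 40 and 441 counts in Klk6+ 1 to 5 and 2, 4, 0, 6 and 3 in WT 1 to 5. Itih4, an inter-alpha-inhibitor gene, was at 9.94 CPM in Klk6+ 5 and at 0.104 to 0.816 CPM in the other 4, and over both groups it was not called (0.71 ± 1.29; edgeR adjusted p = 0.630). Serpina3n measured 182, 226, 452, 390 and 823 CPM in Klk6+ 1 to 5. Alb, by contrast, measured 0.335 CPM in Klk6+ 5 and 1.39 to 6.43 CPM in the other 4 Klk6+ libraries.

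Olfm4, a granule gene of a subset of neutrophils, was not tested, with 1 count in WT and 98 in Klk6+. Il17a had 1 count in WT and 886 in Klk6+ (9.23 ± 0.57; edgeR adjusted p = 7.01e-07), which after scaling for library size is a ratio of 1023 (95% interval 183 to 40461, counting error only). Both genes were picked out after their values were seen.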
